A study of Homo sapiens with 15 samples.

Results

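A set of 31 interferon-stimulated genes was followed through 15 RNA sequencing libraries of HT-1080, an established line from a human fibrosarcoma. The genes were taken from a list of symbols of effectors, sensors and regulators that interferon is known to induce. All 31 were found among the 60670 genes of the deposited count table, and 27 of them had enough counts to be tested. Samples fell into 5 groups of 3 libraries, which the labels call biological replicates. The cycling group received the vehicle DMSO and carries the time label 6 h. The other 4 groups were senescent cells, which had expressed a dominant negative form of the telomere protein TRF2 (gene TERF2) for 6 days and then received DMSO or 1 uM of the kinase inhibitor GNF-7 for 6 h or for 24 h. All groups were grown in tetracycline-free serum at 5% oxygen, and no cycling cells with GNF-7 were analysed here. The labels do not say whether cycling cells carried the TRF2 construct, and a single tumour cell line stands for all groups. The title of the study names GCN2, a kinase that acts on translation initiation, as the target through which GNF-7 acts on senescent cells.

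Type I interferons bind a receptor made of IFNAR1 and IFNAR2, which activates the kinases JAK1 and TYK2. These phosphorylate transcription factors such as STAT2, which act with IRF9 at a response element in the promoters of interferon-stimulated genes. The products block viral replication at many steps, by binding foreign RNA, degrading RNA or trapping particles, and some of them sense nucleic acids or restrain the pathway. Cells can also start the pathway without a virus, when DNA reaches the cytosol and is bound by cGAS, which signals through STING, and senescent cells are among those in which this has been described.

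The promoters of 5 of the genes are shown because each holds the core of the response element. The 5 genes did not all take the same course in these cells. They were picked from the genes with a match, and 7 of the 25 genes in the promoter table had none. Each sequence runs from 250 bases before the transcription start to 50 bases after it, in the direction of transcription, from RefSeq on GRCh38.p14. Capitals mark each match to the core of the response element, which is GAAA, then any 2 bases, then GAAA again, or on the other strand TTTC, any 2 bases and TTTC. IFI6, IFIT1 and ISG15 were called higher in senescence, OAS3 was called lower and SAMD9 was not called. With GNF-7, IFI6, IFIT1, OAS3 and SAMD9 were called lower at 6 h and at 24 h, and ISG15 was called at neither time.
IFI6 (chr1:27672143-27672442, minus strand): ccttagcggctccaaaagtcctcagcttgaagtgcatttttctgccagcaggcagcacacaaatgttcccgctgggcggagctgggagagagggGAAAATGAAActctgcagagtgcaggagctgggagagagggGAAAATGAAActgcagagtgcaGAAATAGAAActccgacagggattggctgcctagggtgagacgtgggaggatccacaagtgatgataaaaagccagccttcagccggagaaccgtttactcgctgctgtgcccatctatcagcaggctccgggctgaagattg
IFIT1 (chr10:89392373-89392672, plus strand): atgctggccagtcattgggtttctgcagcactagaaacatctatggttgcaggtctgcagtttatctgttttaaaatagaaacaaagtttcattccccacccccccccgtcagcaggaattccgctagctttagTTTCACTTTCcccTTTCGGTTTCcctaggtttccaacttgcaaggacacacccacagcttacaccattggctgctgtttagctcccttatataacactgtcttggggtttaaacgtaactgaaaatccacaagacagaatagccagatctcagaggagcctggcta
ISG15 (chr1:1013247-1013546, plus strand): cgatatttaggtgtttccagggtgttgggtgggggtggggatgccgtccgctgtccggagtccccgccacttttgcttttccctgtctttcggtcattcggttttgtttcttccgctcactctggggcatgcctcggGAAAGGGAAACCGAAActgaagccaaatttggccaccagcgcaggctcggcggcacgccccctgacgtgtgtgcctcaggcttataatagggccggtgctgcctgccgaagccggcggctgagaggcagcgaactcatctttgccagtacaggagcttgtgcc
OAS3 (chr12:112938224-112938523, plus strand): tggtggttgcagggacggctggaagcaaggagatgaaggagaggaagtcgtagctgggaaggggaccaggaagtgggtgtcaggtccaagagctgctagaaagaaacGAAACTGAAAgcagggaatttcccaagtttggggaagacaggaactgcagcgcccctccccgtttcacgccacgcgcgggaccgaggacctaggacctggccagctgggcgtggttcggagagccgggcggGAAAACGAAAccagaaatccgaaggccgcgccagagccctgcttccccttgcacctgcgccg
SAMD9 (chr7:93117930-93118229, minus strand): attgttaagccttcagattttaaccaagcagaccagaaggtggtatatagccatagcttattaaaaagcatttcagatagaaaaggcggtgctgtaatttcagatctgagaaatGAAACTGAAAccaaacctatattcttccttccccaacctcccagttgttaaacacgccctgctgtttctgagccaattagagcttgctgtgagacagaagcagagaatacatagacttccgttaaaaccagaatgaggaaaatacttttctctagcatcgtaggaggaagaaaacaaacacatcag
The IFI6 window held 3 matches, which begin 156, 115 and 93 bases before the start. In the IFIT1 window 2 matches begin 116 and 103 bases before the start, and in the ISG15 window 2 matches that overlap begin at 113 and 107 bases. The 2 matches of OAS3 begin 143 and 12 bases before the start, and the single match of SAMD9 begins 136 bases before it. Of the 31 genes, 25 were in the promoter table, and 18 of these (72.0%) held the motif in at least 1 window, against 1195 of all 27305 symbols (4.38%). By single windows of 300 bases the figures were 22 of 35 (62.9%) for the set and 1255 of 35116 (3.57%) for all promoters. The motif was found in 9 of the 14 genes in the table that were called higher in senescence, in 7 of the 8 that were tested and not called higher, and in 2 of the 3 that were too low to test. A match describes the letters in the window and does not show that a factor was bound there.

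Library totals ranged from 25991007 to 32323393 counts. TERF2 checked the labels, with 55.7, 56.6 and 62.4 CPM (counts scaled to library size by edgeR) in the cycling libraries and 278, 293 and 291 CPM in the senescent vehicle libraries of 6 h. Its transcript was at 222, 212 and 226 CPM in vehicle at 24 h, a log2 fold change of -0.39 from 6 h. With GNF-7 it was at 212, 227 and 227 CPM at 6 h and 128, 138 and 129.99 CPM at 24 h, with log2 fold changes of -0.37 and -0.73 from vehicle, and these 3 differences were called lower by edgeR. No senescent library reached down to the cycling range. Defining markers of mesenchymal cells summed to 9931 to 10206 CPM in cycling and 10955 to 11810 CPM in senescent vehicle libraries of 6 h, and to 9586 to 10413 CPM with GNF-7 at 6 h. At 24 h they summed to 7136 to 7426 CPM with GNF-7 against 11218 to 12439 CPM in vehicle. Of the 8, 6 were called lower and 2 higher there, 5 higher and 3 lower in senescence, and 5 lower with GNF-7 at 6 h. S100A4 had only 5 to 90 counts in a library. Of all genes, 35.6% were called higher and 34.4% lower in senescence. With GNF-7 these shares were 17.9% and 21.4% at 6 h and 29.3% and 29.7% at 24 h. Markers of leukocytes summed to 1.31 to 3.43 CPM, of endothelium to 1.29 to 3.14 CPM and of epithelium to 0.894 to 5.54 CPM. The B cell marker MS4A1 had no count. The leukocyte sum was 1.31 to 1.89 CPM in cycling and 2.39 to 2.75 CPM in senescent vehicle libraries of 6 h, where 2 of 4 tested markers were called higher and 1 lower. With GNF-7 at 6 h it was 3.18 to 3.43 CPM, with 1 marker called higher, and at 24 h 2.89 to 3.41 CPM against 2.01 to 2.79 CPM in vehicle. The endothelial sum at 24 h was 2.01 to 3.14 CPM with GNF-7 against 1.34 to 1.595 CPM in vehicle, with 1 of 3 tested markers called higher. The epithelial sum was highest with GNF-7 at 24 h, at 3.88 to 5.54 CPM against 1.08 to 1.20 CPM in vehicle, which came with the splicing regulator ESRP1 and the claudin CLDN4, while CDH1 and EPCAM stayed at no more than 5 and 7 counts. The part of these shifts, and of that in TERF2, in the results was not tested. The share of counts from mitochondrially encoded genes in the cycling group was 4.32 ± 0.637% (SD, n = 3), against 11.7 ± 0.638% in senescent vehicle at 6 h and 16.9 ± 1.80% at 24 h, and with GNF-7 it was 14.1 ± 1.08% at 6 h and 23.3 ± 0.767% at 24 h. With the mitochondrial genes left out, the set gave the same counts of calls for senescence and for GNF-7 at 6 h, 13 in place of 12 lower members for GNF-7 at 24 h, and 7 in place of 6 lower for the interaction between GNF-7 and time. For vehicle at 24 h against 6 h it gave 12 in place of 13 higher members, with DDX60 at 0.237 no longer called. In bulk RNA, fewer cells that express a gene and less RNA per cell cannot be told apart.

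**Figure D1:**
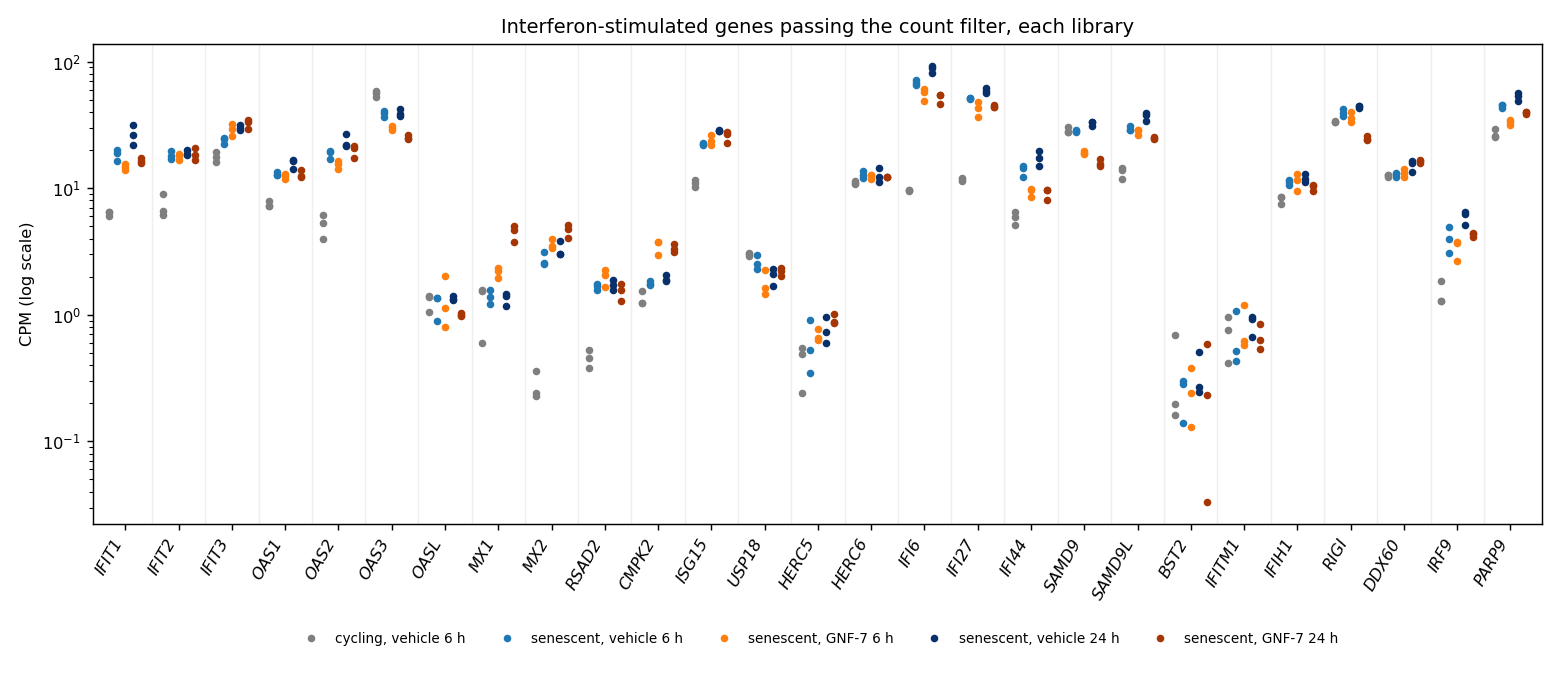
CPM on a log scale (vertical axis) of the 27 tested interferon-stimulated genes (horizontal axis), with 1 point for each of the 15 libraries and a colour for each group. IFI6 lies at 9.47 to 9.71 CPM in cycling cells and 81 to 92.5 CPM in senescent vehicle cells at 24 h, and IFI27, MX2 and OAS2 also lie apart from their cycling points in each senescent group.

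The summed level of the 31 genes was 282 ± 13.3 CPM (SD, n = 3) in the cycling group. Senescent vehicle cells had 482 ± 6.65 CPM at 6 h. Vehicle at 24 h gave 572 ± 32.3 CPM, and GNF-7 gave 424 ± 29.2 CPM at 6 h and 424 ± 3.39 CPM at 24 h. Per length of exon, the most abundant members in cycling cells were ISG15 at 11.6 ± 0.708 RPKM (CPM divided by exon length in kilobases) and IFI6 at 11.1 ± 0.14 RPKM, which did not differ beyond their spread, then RIGI at 7.69 ± 0.113 RPKM. In the senescent vehicle group of 6 h the order was IFI6 at 78.5 ± 3.55 RPKM, ISG15 at 23.7 ± 0.4 RPKM and IFI27 at 12.3 ± 0.0803 RPKM, and these 3 were apart by more than their spread. IFI6 and ISG15 kept the first and second place in each senescent group. The length takes in all annotated exons of a gene, 865 bases for IFI6, 941 for ISG15 and 4147 for IFI27. These orders depend on it, and which transcripts were present was not tested. By CPM alone, cycling cells had IFI27 at 11.7 ± 0.355, ISG15 at 10.9 ± 0.666 and IFI6 at 9.6 ± 0.122 CPM.

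Of the genes that were too low to test, IFI44L had no count in cycling cells, 3, 3 and 9 counts in senescent vehicle libraries at 6 h, 5, 3 and 1 at 24 h, 1, 3 and 1 with GNF-7 at 6 h and 4, 21 and 7 at 24 h. EPSTI1 had no count in the cycling libraries or in senescent vehicle at 6 h, 0, 3 and 0 counts in vehicle at 24 h, and 4, 13 and 3 and 1, 3 and 11 counts with GNF-7 at 6 h and 24 h. XAF1, which counters an inhibitor of apoptosis, had at most 7 counts and IRF7, the factor that amplifies type I interferon in many immune cells, at most 2 counts in any library. With 0 counts in a library, up to 3 counts are allowed at the 95% level by counting error alone.

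The comparison of senescent with cycling cells, both in vehicle at 6 h, asked how the genes changed with senescence. By the edgeR quasi-likelihood test, 17 of the 27 tested members were called higher and 1 lower at an adjusted p under 0.05, and 9 were not called. Sizes given after rose by, fell by or changed by are log2 fold changes throughout. Over all 18563 genes tested, 35.6% were called higher and 34.4% lower. Calls of at least 2-fold higher covered 11 members, where 18.5% of all genes were called at that size. The median log2 fold change of the members was 0.469 and that of all genes 0.0623. Libraries of the groups did not overlap for 19 of the 27 members, against 71.5% of all genes.

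The membrane protein IFI6, which protects the endoplasmic reticulum from viral remodelling (ENSG00000126709, chromosome 1, 27666061 to 27672218, minus strand, GENCODE 29 on GRCh38), was at 9.61, 9.71 and 9.47 CPM in the cycling libraries. In the senescent vehicle libraries at 6 h it was at 71.2, 67.2 and 65.2 CPM. The senescent libraries all lay far above the cycling ones, with a log2 fold change of 2.82 (SE 0.0833, adjusted p = 3.00e-24 by edgeR), or 7.07-fold. IFI27, a small mitochondrial protein (ENSG00000165949, chromosome 14, 94104836 to 94116698, plus strand), was at 11.8, 11.3 and 12 CPM in cycling and 51.2, 51.1 and 50.5 CPM in senescent libraries. Its log2 fold change was 2.12 (SE 0.0706, adjusted p = 2.80e-35 by edgeR). IFI44, a cytoplasmic protein induced by interferon, rose by 1.23 (SE 0.116, adjusted p = 1.41e-14 by edgeR), from 5.85 ± 0.736 to 13.8 ± 1.44 CPM.

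The MX proteins are dynamin-like GTPases that trap viral ribonucleoproteins or capsids. MX2 (ENSG00000183486, chromosome 21, 41361943 to 41409390, plus strand) was at 0.362, 0.241 and 0.229 CPM in cycling cells and 3.15, 2.53 and 2.57 CPM in senescent cells. This was the largest log2 fold change among the tested members, at 3.31 (SE 0.282, adjusted p = 2.15e-16 by edgeR), from a low cycling level. MX1 (ENSG00000157601, chromosome 21, 41420304 to 41459214, plus strand) was at 0.603, 1.55 and 1.57 CPM in cycling and 1.56, 1.39 and 1.21 CPM in senescent cells. These ranges overlap, and the log2 fold change of MX1 was 0.14 (95% interval -0.38 to 0.65, edgeR adjusted p = 0.652).

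Oligoadenylate synthetases make a second messenger when they meet double-stranded RNA. OAS2 was at 3.94, 5.3 and 6.1 CPM in cycling and 17, 19.8 and 19.2 CPM in senescent libraries, a log2 fold change of 1.85 (SE 0.114, adjusted p = 7.50e-20 by edgeR). OAS1 went from 7.45 ± 0.379 to 13 ± 0.455 CPM, by 0.80 (SE 0.101, adjusted p = 2.70e-10 by edgeR). OAS3 (ENSG00000111331, chromosome 12, 112938352 to 112973249, plus strand) was the member called lower, with 52.8, 56.2 and 58.4 CPM in cycling and 36.7, 41 and 39.5 CPM in senescent libraries. It fell by 0.51 on the log2 scale (edgeR adjusted p = 1.04e-11), and its groups did not overlap. OASL, which lacks the synthetase activity and acts with RIG-I, had a log2 fold change of -0.10 (95% interval -0.69 to 0.49, edgeR adjusted p = 0.775).

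IFIT proteins bind foreign RNA and hold back its translation. IFIT1 (ENSG00000185745, chromosome 10, 89392546 to 89406486, plus strand) was at 6.07, 6.44 and 6.46 CPM in cycling and 16.3, 19 and 19.9 CPM in senescent libraries, a log2 fold change of 1.54 (SE 0.105, adjusted p = 9.58e-20 by edgeR). IFIT2 was at 6.56, 6.13 and 8.98 CPM and 17, 17.8 and 19.8 CPM, a log2 fold change of 1.33 (SE 0.103, adjusted p = 1.82e-17 by edgeR). No senescent library of either gene reached the cycling range. IFIT3 rose by 0.43 (SE 0.0785, adjusted p = 2.10e-06 by edgeR).

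ISG15 is a ubiquitin-like protein that is joined to other proteins, and it rose from 10.9 ± 0.666 to 22.3 ± 0.376 CPM, by 1.03 (SE 0.0832, adjusted p = 2.49e-17 by edgeR). The related genes HERC6 and HERC5 differed in their calls. HERC6 had a log2 fold change of 0.22 (SE 0.0977, adjusted p = 0.0407 by edgeR), and HERC5 one of 0.47 (95% interval -0.39 to 1.33, edgeR adjusted p = 0.344). The HERC6 call was lost without any 1 of the cycling libraries or without senescent vehicle library 1 or 2, with values of 0.164 to 0.24, and without a low-count filter, at 0.237. USP18, the protease that takes ISG15 off and damps receptor signalling, had a log2 fold change of -0.21 (95% interval -0.60 to 0.19, edgeR adjusted p = 0.36). Near-identical copies of USP18 lie elsewhere in the genome, so its count is uncertain.

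RSAD2 (viperin) makes a nucleotide that ends viral RNA chains, and it rose from 0.453 ± 0.0722 to 1.68 ± 0.0901 CPM, by 1.89 (SE 0.306, adjusted p = 1.76e-07 by edgeR). CMPK2, its neighbour and a mitochondrial nucleotide kinase, had a log2 fold change of 0.42 (95% interval -0.03 to 0.86, edgeR adjusted p = 0.0949). SAMD9L, a restriction factor of poxviruses that also holds back cell growth, was at 11.8, 13.9 and 14.5 CPM in cycling and 30.9, 28.7 and 28.9 CPM in senescent libraries, a log2 fold change of 1.13 (SE 0.0752, adjusted p = 6.25e-21 by edgeR). Its paralog SAMD9 (ENSG00000205413, chromosome 7, 93099513 to 93118023, minus strand) was at 27.7, 27.5 and 30.7 CPM and 27.6, 28.5 and 29 CPM, ranges that overlap, and its log2 fold change was -0.01 (95% interval -0.15 to 0.12, edgeR adjusted p = 0.874). PARP9, which joins the ubiquitin ligase DTX3L, rose by 0.73 (SE 0.0621, adjusted p = 2.91e-16 by edgeR). For DDX60 the value was 0.03 (95% interval -0.15 to 0.21, edgeR adjusted p = 0.786), for IFITM1 -0.05 (95% interval -0.87 to 0.76, edgeR adjusted p = 0.918) and for BST2, a tether that holds virions at the cell surface, -0.53 (95% interval -1.83 to 0.76, edgeR adjusted p = 0.479). BST2 had the widest interval, with under 1 CPM in each library.

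Among the sensors and regulators in the set, IRF9 rose from 1.29, 1.27 and 1.86 CPM in cycling libraries to 3.05, 4.89 and 3.99 CPM in senescent ones, a log2 fold change of 1.42 (SE 0.2, adjusted p = 5.57e-09 by edgeR). Of the RNA sensors, IFIH1 (MDA5) rose by 0.44 (SE 0.11, adjusted p = 0.000308 by edgeR) and RIGI (RIG-I, ENSG00000107201, chromosome 9, 32455705 to 32526324, minus strand) by 0.25 (SE 0.0621, adjusted p = 0.000416 by edgeR).

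Exons of 10 members overlap those of another annotated gene, on the same strand for 3 of them (IFIT2, IRF9 and IFITM1) and on the other strand for 8. The latter include CMPK2 and RSAD2, which overlap each other, PARP9 with DTX3L, and ISG15, MX1 and OAS1 with non-coding genes. Whether the counting used strand is not given in the sources used here, so the values of these genes may hold reads of the overlapping gene.

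**Figure D2:**
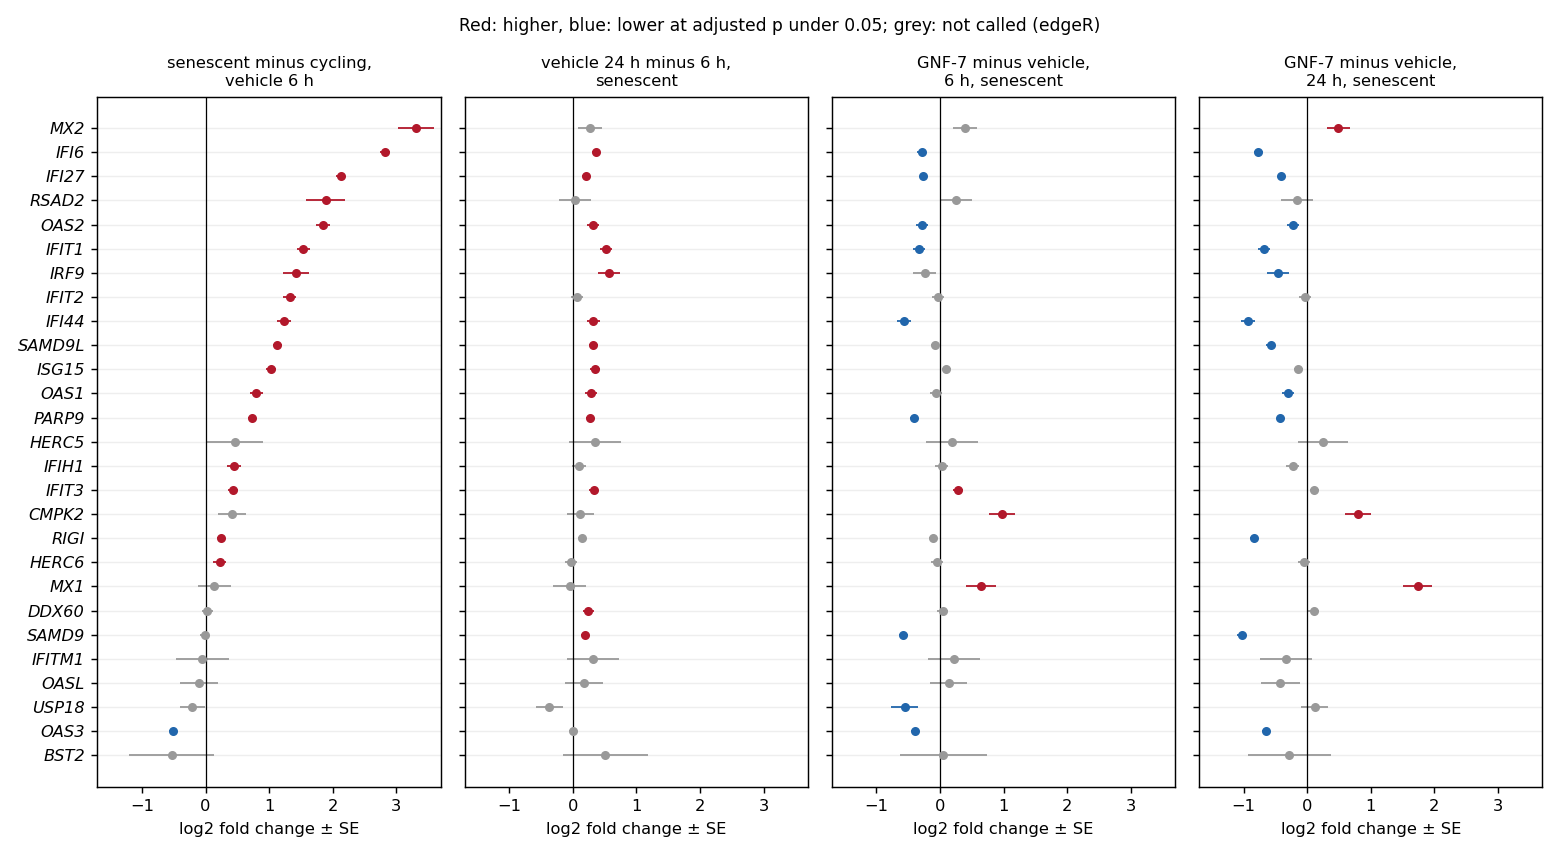
Log2 fold change (horizontal axis) with its SE for each of the 27 tested interferon-stimulated genes in senescence, GNF-7 at 6 h, GNF-7 at 24 h and vehicle at 24 h against 6 h, in red for genes called higher, blue for lower and grey for not called at an adjusted p under 0.05. MX2 lies farthest right in senescence at 3.31, and MX1 lies farthest right with GNF-7 at 24 h at 1.74, where SAMD9 lies farthest left at -1.03.

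Several members are neighbours in the genome, and the ratio of their CPM in each library shows whether they moved together. This ratio compares 1 pair across groups, not the abundance of its genes. The gap between MX2 and MX1 on chromosome 21 is 10913 bases. In cycling cells MX2 to MX1 gave a ratio of 0.3 ± 0.259 (SD, n = 3), and senescent vehicle cells gave 1.98 ± 0.151. The later libraries gave 2.46 ± 0.254 in vehicle and 1.04 ± 0.0799 with GNF-7. Thus the ratio went up with senescence and down with GNF-7, without overlap between the libraries compared.

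OAS1, OAS3 and OAS2 follow each other on chromosome 12 with gaps of 5129 and 5145 bases. The ratio of OAS3 to OAS2 was 11.2 ± 1.98 in cycling cells and 2.1 ± 0.0539 in senescent cells. For SAMD9 and SAMD9L, 12031 bases apart on chromosome 7, the ratio was 2.14 ± 0.187 in cycling cells and 0.964 ± 0.0596 in senescent vehicle cells at 6 h, and with GNF-7 at 6 h it was 0.684 ± 0.0403. CMPK2 and RSAD2 overlap by 830 bases on opposite strands of chromosome 2. Their ratio, CMPK2 to RSAD2, was 2.97 ± 0.282 in cycling cells, 1.06 ± 0.105 in senescent vehicle cells at 6 h, 1.12 ± 0.167 in vehicle at 24 h and 2.2 ± 0.185 with GNF-7 at 24 h. An exact permutation test of 3 libraries against 3, two-sided, gave p = 0.1 for each of these differences. After adjustment over 24 tests of 8 pairs it was 0.12. A p of 0.1 is the smallest this test can give, so it cannot reach 0.05. Libraries did not overlap in 20 of the 24 tests, and pairs of genes outside the set were not compared. HERC6 and HERC5, 14005 bases apart, gave no such separation, with exact permutation p from 0.5 to 0.7. The ratio of OAS3 to OAS2 overlapped between GNF-7 and vehicle at 6 h, with an exact permutation p of 0.3.

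**Figure D3:**
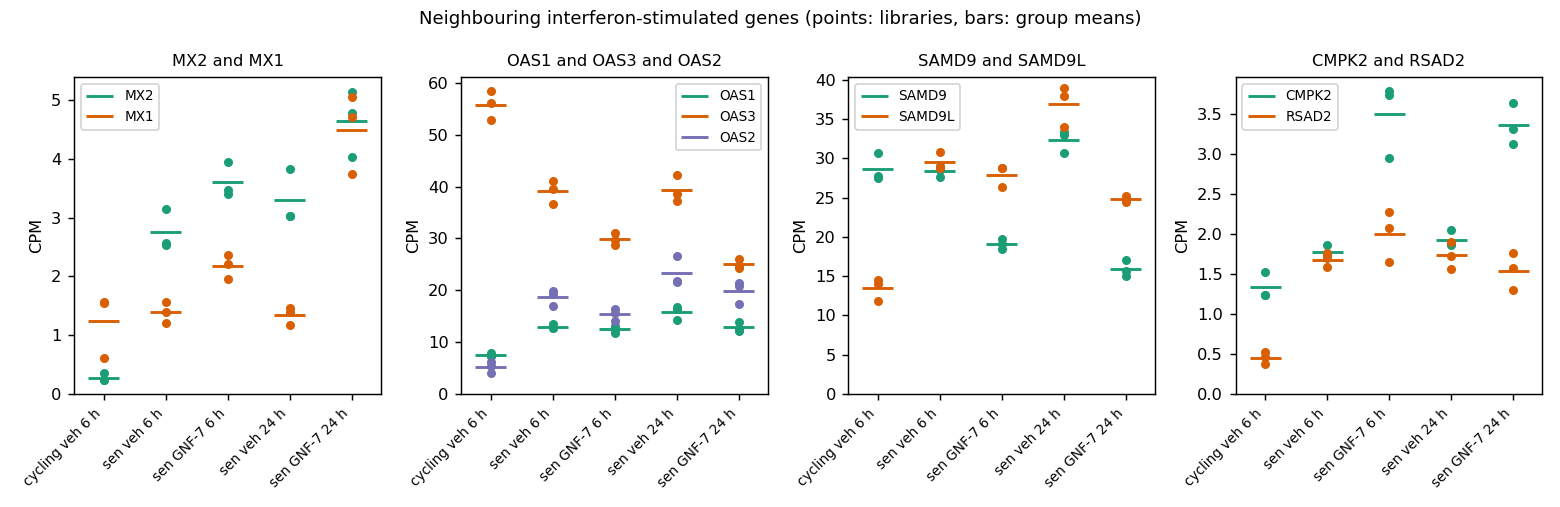
CPM (vertical axes, from 0) of neighbouring interferon-stimulated genes, 1 panel for each cluster, in the 5 groups, with 1 point for each library and a bar for each group mean. MX2 was higher in each senescent group than in cycling cells, whereas MX1 was at 0.603 to 1.57 CPM in all groups without GNF-7 and at 3.73 to 5.05 CPM with GNF-7 at 24 h.

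Time in vehicle was compared in senescent cells, 24 h against 6 h, as a measure of how the set moved over these hours in the absence of GNF-7. Here 13 of the 27 tested members were called higher and none lower by edgeR, against 9.26% and 9.29% of all genes tested. At an unadjusted p under 0.05, and with DESeq2, 0 members were lower. Libraries did not overlap between the times for 14 members, against 32.9% of all genes. The median log2 change of the members was 0.264 and of all genes 0.00878. IFIT1 was at 16.3, 19 and 19.9 CPM at 6 h and 22, 31.4 and 26.1 CPM at 24 h, with a log2 fold change of 0.52 (SE 0.0895, adjusted p = 1.00e-05 by edgeR). IFI6 was at 81, 92.5 and 89.2 CPM at 24 h, a change of 0.37 (SE 0.0652, adjusted p = 9.91e-05 by edgeR), and SAMD9L at 34, 38 and 39 CPM, a change of 0.33 (SE 0.0679, adjusted p = 0.000237 by edgeR). For each of these genes the lowest library at 24 h lay above the highest at 6 h. ISG15 rose by 0.35, IFIT3 by 0.33 and PARP9 by 0.26 on the log2 scale, with edgeR adjusted p of 0.000383, 0.000786 and 0.000543. The remaining calls were IRF9, OAS1, OAS2, IFI27, IFI44, DDX60 and SAMD9, at 0.19 to 0.57.

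These 7 remaining calls were each lost when at least 1 library was left out, with values of 0.17 to 0.528 when lost. IFI27 lost its call without vehicle 24 h library 2, OAS2 without that library or 6 h library 1, and IFI44 without those or 24 h library 3. IRF9 lost its call without 6 h library 1 or 24 h library 1 or 3, and OAS1 without 6 h library 2 or 3 or 24 h library 2 or 3. DDX60 and SAMD9 lost theirs without any 1 of the 6 libraries except 24 h library 3. The count of members called higher was 7 without vehicle 24 h replicate 2 and 8 without vehicle 6 h replicate 1, and 7 when libraries were scaled by total counts alone. Without a low-count filter OAS1 at 0.275, DDX60 at 0.233 and SAMD9 at 0.177 were not called. Under that scaling the median of all genes was -0.102, and 12.5% of all called genes were higher, against 49.9% with TMM scaling.

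GNF-7 was compared with vehicle in senescent cells after 6 h. Of the 27 tested members, 9 were called lower and 3 higher by edgeR, against 21.4% of all genes lower and 17.9% higher, and 15 were not called. The median log2 fold change was -0.0459 for the members and 0.00729 for all genes. The median of the members was -0.0878 without GNF-7 library 1, -0.0744 without vehicle library 3, -0.0138 without GNF-7 library 2 and between those values without any of the others. Libraries did not overlap between groups for 13 members, against 47.7% of all genes. SAMD9 was at 27.6, 28.5 and 29 CPM in vehicle and 19.7, 19.1 and 18.5 CPM with GNF-7, a log2 fold change of -0.57 (SE 0.0701, adjusted p = 4.47e-10 by edgeR). Every GNF-7 library of SAMD9 lay below every vehicle library. PARP9 was at 45, 42.6 and 45.1 CPM in vehicle and 34.7, 31.6 and 33.3 CPM with GNF-7, a change of -0.41 (SE 0.0604, adjusted p = 5.39e-08 by edgeR). OAS3 was at 31, 29.7 and 28.8 CPM with GNF-7, and it fell from its vehicle level by 0.39 on the log2 scale (edgeR adjusted p = 3.06e-07).

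IFI44 was at 12.2, 14.3 and 15 CPM in vehicle and 8.49, 9.91 and 9.61 CPM with GNF-7, a log2 fold change of -0.57 (SE 0.109, adjusted p = 1.89e-05 by edgeR). IFI27 was at 47.5, 36.8 and 43.1 CPM with GNF-7, a change of -0.26 (SE 0.0601, adjusted p = 0.000305 by edgeR), and IFI6 and IFIT1 changed by -0.29 (SE 0.0667, adjusted p = 0.000784 by edgeR) and -0.33 (SE 0.0934, adjusted p = 0.00311 by edgeR). The other lower calls were OAS2 at -0.28 (SE 0.0982, adjusted p = 0.019 by edgeR) and USP18 at -0.56 (SE 0.211, adjusted p = 0.0294 by edgeR). The OAS2 call was lost without vehicle replicate 2 or 3 or GNF-7 replicate 2, at -0.263 to -0.21, and with only genes of at least 5 CPM on average tested, at -0.229. That of USP18 was lost without vehicle replicate 2 or GNF-7 replicate 2 or 3, at -0.483 to -0.437, and without a low-count filter, at -0.577.

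The higher calls at 6 h were CMPK2, MX1 and IFIT3. CMPK2 was at 1.72, 1.86 and 1.73 CPM in vehicle and 2.95, 3.74 and 3.79 CPM with GNF-7, a log2 fold change of 0.97 (SE 0.199, adjusted p = 4.91e-05 by edgeR). MX1 was at 2.2, 1.95 and 2.35 CPM with GNF-7, above all 3 vehicle libraries, a change of 0.65 (SE 0.241, adjusted p = 0.0271 by edgeR). That call was lost without vehicle replicate 2 or 3 or GNF-7 replicate 1 or 3, at 0.559 to 0.643, and without a low-count filter, at 0.625. IFIT3 rose by 0.28 (SE 0.0743, adjusted p = 0.00163 by edgeR). RSAD2 (log2 fold change 0.25), SAMD9L (-0.08) and MX2 (0.39) were among those not called.

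After 24 h, GNF-7 and vehicle were compared in the same way with other libraries. Of the 27 tested members, 12 were called lower and 3 higher by edgeR, against 29.7% and 29.3% of all genes. SAMD9 was the single member called lower by at least 2-fold (3.92% of all genes), and MX1 the single one higher by at least 2-fold (10.3%). The median log2 fold change was -0.278 for the members and 0.0382 for all genes. Groups did not overlap for 18 members, against 63.2% of all genes.

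SAMD9 was at 33.1, 33.3 and 30.7 CPM in vehicle at 24 h and 17, 15 and 15.6 CPM with GNF-7, a log2 fold change of -1.03 (SE 0.0712, adjusted p = 7.21e-20 by edgeR). SAMD9L was at 24.5, 25.3 and 24.8 CPM with GNF-7 and fell by 0.57 on the log2 scale (edgeR adjusted p = 1.02e-10). RIGI was at 43.3, 44.2 and 44.7 CPM in vehicle and 25.7, 23.8 and 24.5 CPM with GNF-7, a change of -0.84 (SE 0.0634, adjusted p = 3.82e-18 by edgeR). All GNF-7 libraries of these 3 genes lay below all vehicle libraries. IFI6 was at 45.8, 54 and 54.5 CPM with GNF-7, a change of -0.77 (SE 0.0665, adjusted p = 1.16e-11 by edgeR), and stayed above its cycling level of 9.6 ± 0.122 CPM. IFI44 was at 14.9, 19.7 and 17.3 CPM in vehicle and 9.62, 9.58 and 8.07 CPM with GNF-7, a change of -0.93 (SE 0.108, adjusted p = 3.98e-11 by edgeR). OAS3 was at 37.2, 42.2 and 38.5 CPM in vehicle and 26.1, 24.7 and 24.3 CPM with GNF-7, a change of -0.65 (SE 0.0626, adjusted p = 4.57e-14 by edgeR).

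IFIT1 fell by 0.68, PARP9 by 0.42, IFI27 by 0.40 and OAS1 by 0.30 on the log2 scale, with edgeR adjusted p of 2.64e-09, 6.58e-09, 3.22e-08 and 0.0044. IRF9 changed by -0.46 (SE 0.167, adjusted p = 0.0151 by edgeR) and OAS2 by -0.23 (SE 0.0948, adjusted p = 0.0353 by edgeR). The IRF9 call was lost without vehicle 24 h replicate 1 or 3, at -0.42 to -0.403, and the OAS2 call without library 2 of vehicle or library 3 of GNF-7 at that time, at -0.143 to -0.127. OAS2 also lost its call with DESeq2, at -0.234, with scaling by total counts, at -0.2, and with the minimum mean of 5 CPM, at -0.128. All these falls are measured against vehicle at 24 h. Of the members called lower, SAMD9 and 9 that were higher in senescence were also called higher in vehicle at 24 h against 6 h. That rise was measured in the same 24 h vehicle libraries. Among the members not called, ISG15 had a log2 fold change of -0.14 (95% interval -0.29 to 0.00, edgeR adjusted p = 0.0972), IFIT3 one of 0.11 (95% interval -0.03 to 0.26, edgeR adjusted p = 0.178) and RSAD2 one of -0.16 (95% interval -0.66 to 0.33, edgeR adjusted p = 0.602).

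The 3 members called higher at 24 h were MX1, MX2 and CMPK2. MX1 was at 1.47, 1.16 and 1.39 CPM in vehicle and 4.71, 3.73 and 5.05 CPM with GNF-7, so that the lowest GNF-7 library was well above the highest vehicle library. Its log2 fold change was 1.74 (SE 0.229, adjusted p = 1.43e-09 by edgeR), or 3.34-fold. CMPK2 was at 2.04, 1.87 and 1.86 and 3.31, 3.64 and 3.12 CPM, a change of 0.80 (SE 0.199, adjusted p = 0.000427 by edgeR). MX2 was at 3.83, 3.03 and 3.02 and 5.14, 4.03 and 4.78 CPM, a change of 0.49 (SE 0.176, adjusted p = 0.0136 by edgeR). The MX2 call was lost without vehicle library 2 or 3 or GNF-7 library 1 of that time, at 0.411 to 0.43.

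The senescence comparison and that of GNF-7 at 24 h share no library. Of the 17 members called higher in senescence, 10 (58.8%) were called lower with GNF-7 at 24 h, which is 83.3% of the 12 lower members. Over all genes tested, 1320 were in both classes, 20% of the 6615 higher in senescence and 24% of the 5506 lower with GNF-7. Those 10 members were IFIT1, OAS1, OAS2, IFI6, IFI27, IFI44, RIGI, IRF9, SAMD9L and PARP9. MX2 was the single member called higher in both, against 2912 genes of all tested, 44% of those higher in senescence. The GNF-7 comparisons at 6 h and 24 h likewise share no library, and 8 members were called lower in both, 88.9% of the 9 at 6 h and 66.7% of the 12 at 24 h. Over all genes these shares were 80.9% and 58.4%.

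Whether the effect of GNF-7 grew or shrank from 6 h to 24 h was tested as an interaction. Of the 27 tested members, 6 had a more negative log2 fold change with GNF-7 at 24 h and 1 a more positive one by edgeR. Of all genes, 18% and 12.8% were called in these directions. The 6 had negative values at both times, so their fall was larger at 24 h. The median difference was -0.241 for the members and -5.15e-05 for all genes. RIGI, at 40.3, 33.6 and 35.8 CPM with GNF-7 at 6 h and 25.7, 23.8 and 24.5 CPM at 24 h, gave the smallest p, with a difference in log2 fold change of -0.72 (SE 0.0881, adjusted p = 7.75e-10 by edgeR). SAMD9L differed by -0.49 (SE 0.0975, adjusted p = 4.00e-05 by edgeR), IFI6 by -0.48 (SE 0.0941, adjusted p = 0.000152 by edgeR) and SAMD9 by -0.45 (SE 0.1, adjusted p = 0.000217 by edgeR). MX1 was the member with the larger rise at 24 h, by 1.09 (SE 0.336, adjusted p = 0.00851 by edgeR). OAS3 and IFIT1 differed by -0.26 (SE 0.0876, adjusted p = 0.0166 by edgeR) and -0.35 (SE 0.13, adjusted p = 0.0338 by edgeR). The OAS3 call was lost without library 1 of vehicle at 6 h or library 2 of vehicle at 24 h, at -0.221 to -0.21. That of IFIT1 was lost without vehicle 6 h library 1, GNF-7 6 h library 1 or 3, vehicle 24 h library 2, or GNF-7 24 h library 2 or 3, at -0.354 to -0.212, and also with limma voom, at -0.335, and with the minimum mean of 5 CPM, at -0.301. The count of members called more negative at 24 h was 4 without vehicle 6 h library 1 or vehicle 24 h library 2. It was 8 without GNF-7 6 h library 2, and the count called more positive was 2 without GNF-7 6 h library 1. IFIT1, IFI6, SAMD9 and SAMD9L were also called higher in vehicle between these times, in libraries that enter this difference.

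Upstream of the set, a list of 9 interferon ligands held 1 that could be tested, IFNE, an interferon best known from the female reproductive tract. IFNE was at 1.37, 1.69 and 2.68 CPM in cycling and 7.12, 9.22 and 10.1 CPM in senescent cells in vehicle, a log2 fold change of 2.18 (SE 0.175, adjusted p = 4.71e-16 by edgeR). At 24 h it was at 9.09, 10.6 and 8.47 CPM in vehicle and 3.24, 4.32 and 3.49 CPM with GNF-7, a change of -1.35 (SE 0.157, adjusted p = 1.52e-10 by edgeR). IFNB1, the type I interferon that most cell types can make, was too low to test. IFNB1 had no count in cycling cells, 0, 1 and 0 counts in senescent vehicle libraries at 6 h and 0, 0 and 2 at 24 h. With GNF-7 it had 3, 7 and 4 counts at 6 h and 13, 22 and 9 counts at 24 h, above each vehicle library of the same time. The 24 h counts of IFNB1 with GNF-7 corresponded to 0.434, 0.715 and 0.299 CPM.

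Of 11 receptor, JAK and STAT genes, 10 were tested, and 6 were called higher and 1, the interferon gamma receptor chain IFNGR2, lower in senescence, against 35.6% and 34.4% of all genes. STAT2 was at 43, 40.8 and 40.5 CPM in cycling and 118, 119 and 119 CPM in senescent cells, a log2 fold change of 1.52 (SE 0.0482, adjusted p = 1.44e-36 by edgeR). STAT3 and IFNGR1, the partner of IFNGR2, rose by 0.59 and 0.52. With GNF-7, 4 of these genes were called higher and 4 lower at 6 h, and 4 higher and 4 lower at 24 h. Of all genes, 17.9% were called higher and 21.4% lower at 6 h, and 29.3% and 29.7% at 24 h. IFNAR1 was at 78.8, 75.6 and 80.7 CPM in vehicle at 24 h and 41.6, 34 and 35.7 CPM with GNF-7, a change of -1.08 (SE 0.0547, adjusted p = 1.51e-25 by edgeR), after -0.60 (SE 0.0522, adjusted p = 5.94e-15 by edgeR) at 6 h. IFNAR2 changed by -0.93 at 6 h and -0.55 at 24 h. STAT2 rose in the same libraries, to 174, 185 and 172 CPM at 24 h, by 0.62 (SE 0.0437, adjusted p = 3.09e-19 by edgeR).

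**Figure D4:**
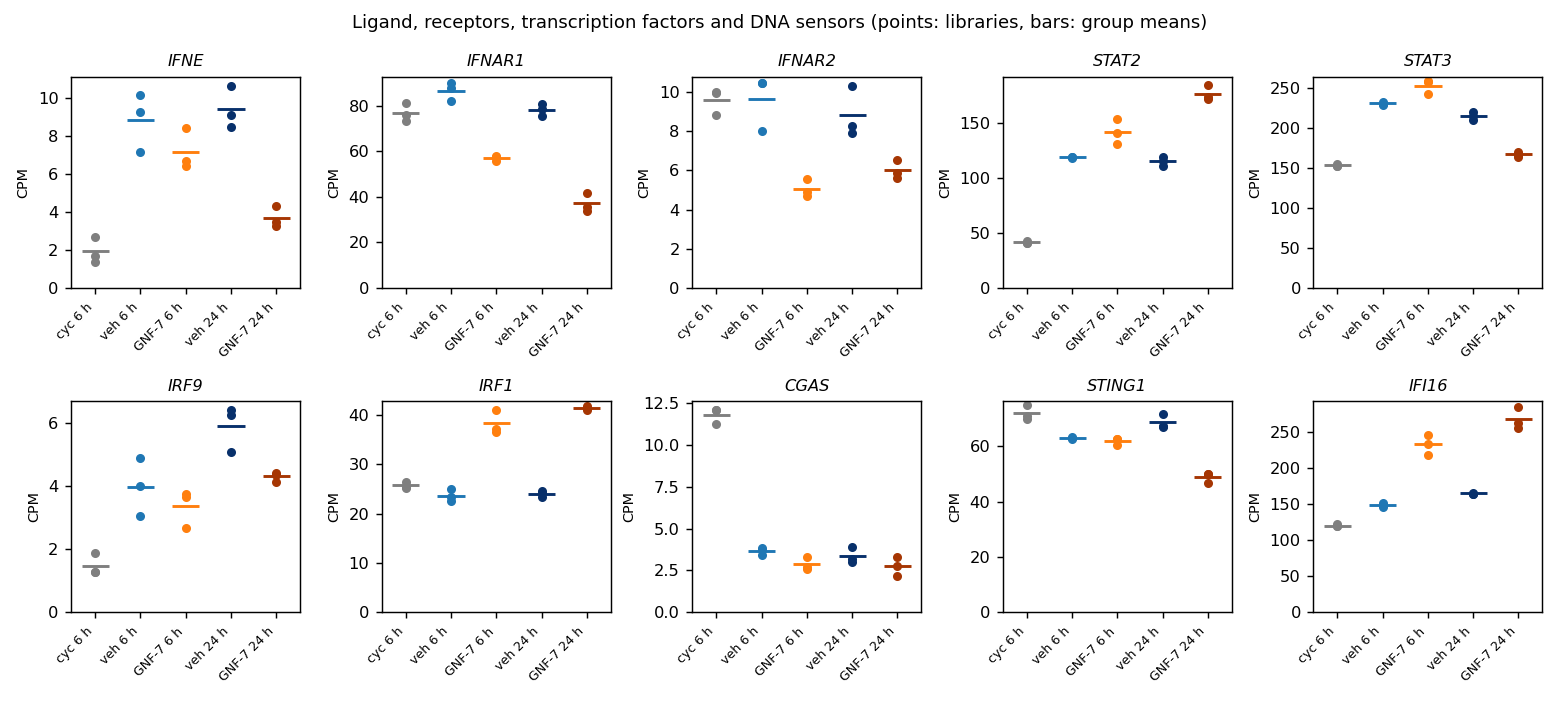
CPM (vertical axes, from 0) of an interferon ligand, receptor chains, transcription factors and DNA sensors in the 5 groups, with 1 point for each library and a bar for each group mean. IFNAR1 was at 34 to 41.6 CPM with GNF-7 at 24 h, below all other libraries, and STAT2 was at 172 to 185 CPM there, above all other libraries.

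Of 5 further interferon regulatory factors, IRF3 had a log2 fold change of 0.47 (SE 0.0553, adjusted p = 2.85e-11 by edgeR) and IRF2 one of -0.49 (SE 0.0696, adjusted p = 8.31e-09 by edgeR) in senescence. IRF1, which acts on many of the same promoters, had a log2 fold change of -0.13 in senescence and was not called. With GNF-7, IRF1 was at 36.7, 37.2 and 41.1 CPM at 6 h against 25, 22.5 and 23.3 CPM in vehicle, a change of 0.70 (SE 0.0634, adjusted p = 1.81e-14 by edgeR), and at 24 h it changed by 0.78 (SE 0.0634, adjusted p = 5.65e-17 by edgeR). IRF5 rose at 24 h by 1.43 (SE 0.286, adjusted p = 1.95e-05 by edgeR). IRF3 changed by -0.17 (SE 0.054, adjusted p = 0.0104 by edgeR) at 6 h. IRF2 changed by -0.18 (SE 0.0728, adjusted p = 0.0326 by edgeR) at 24 h. Of these 5, 1 was called higher and 1 lower in senescence and with GNF-7 at 6 h, and 2 higher and 1 lower at 24 h. The shares of all genes higher and lower were 35.6% and 34.4%, 17.9% and 21.4%, and 29.3% and 29.7%.

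In the list of 12 nucleic acid sensing genes, 11 were tested, and 5 were called higher and 4 lower in senescence, which is 45.5% and 36.4% of those tested against 35.6% and 34.4% of all genes. CGAS, the cytosolic DNA sensor, was at 11.3, 12.1 and 12.1 CPM in cycling and 3.84, 3.44 and 3.75 CPM in senescent cells, a log2 fold change of -1.69 (SE 0.145, adjusted p = 3.16e-16 by edgeR). Its partner STING1 fell by 0.19 and the kinase EIF2AK2 (PKR) by 0.83 on the log2 scale, and MAVS, the adaptor of the RNA sensors, and the endosomal receptor TLR3 rose by 0.11 and 1.21. With GNF-7, 2 were called higher and 2 lower at 6 h, and 2 higher and 3 lower at 24 h. The higher and lower shares at 6 h were 18.2% each, against 17.9% and 21.4% of all genes, and those at 24 h 18.2% and 27.3%, against 29.3% and 29.7%. The DNA binding protein IFI16 rose by 0.65 (SE 0.0403, adjusted p = 2.94e-21 by edgeR) at 6 h and 0.70 (SE 0.0401, adjusted p = 1.37e-23 by edgeR) at 24 h. STING1 changed by -0.49 (SE 0.0485, adjusted p = 1.14e-13 by edgeR) at 24 h, and MAVS by -0.24 (SE 0.0413, adjusted p = 3.16e-06 by edgeR) at 6 h.

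Of 11 negative regulators, 10 were tested, and 9 were called lower and 1 higher in senescence, against 34.4% and 35.6% of all genes. The higher one was the phosphatase PTPN6, with a log2 fold change of 2.17 (SE 0.675, adjusted p = 0.00369 by edgeR). RNASEH2B, a subunit of the enzyme that removes RNA from hybrids with DNA, fell by 1.46 on the log2 scale. The RNA editing enzyme ADAR fell by 0.38, the phosphatase PTPN2 by 0.63 and SOCS1, an inhibitor of JAK kinases, by 0.83. For RNASEH2B, ADAR, PTPN2 and SOCS1 the edgeR adjusted p was 1.30e-19, 2.73e-14, 8.85e-14 and 0.00762. With GNF-7, 2 were called higher and 3 lower at 6 h, and 2 higher and 5 lower at 24 h, where 17.9% and 21.4% of all genes were higher and lower at 6 h and 29.3% and 29.7% at 24 h. SOCS1 was among the 5 lower genes, at -0.78 (SE 0.291, adjusted p = 0.0175 by edgeR).

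A wider list of 45 interferon targets outside the set had 42 that were tested. In senescence 20 (47.6%) were called higher and 12 (28.6%) lower, against 35.6% and 34.4% of all genes. The smallest p were those of TRIM22 at 1.43 (SE 0.0439, adjusted p = 1.19e-37 by edgeR), LGALS3BP at 1.15 (SE 0.0361, adjusted p = 5.65e-37 by edgeR) and APOL2 at 1.00 (SE 0.0472, adjusted p = 5.53e-28 by edgeR). With GNF-7, 9 were called higher and 15 lower at 6 h, and 16 higher and 17 lower at 24 h. These are 21.4% and 35.7% at 6 h, against 17.9% and 21.4% of all genes, and 38.1% and 40.5% at 24 h, against 29.3% and 29.7%. WARS1, the tryptophan tRNA synthetase, rose by 1.59 (SE 0.0368, adjusted p = 2.36e-43 by edgeR) at 6 h and 2.43 (SE 0.0374, adjusted p = 2.46e-53 by edgeR) at 24 h. SLFN5 rose by 1.14 and 1.33, and the ubiquitin ligase TRIM25 by 0.75 and 1.31 on the log2 scale. WARS1, SLFN5 and TRIM25 had the smallest p of the list at both times. Over the 42 tested genes, log2 fold changes at 24 h ran from -2.27 to 2.43, with a median of -0.0816.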

How the data were processed

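The authors deposited raw read counts for each Ensembl gene identifier, in 1 table without normalization. A stranded mRNA kit was used for the libraries, per the labels' protocols. Reads were processed with bcl2fastq 2.20.0.422, STAR 2.7.9a, featureCounts 1.5.1 and GRCh38, per the submitters' processing notes. The annotation release and the strand setting of the counting are not given in the sources used here. Of 60673 rows, 3 were left out as pieces of a broken ANK2 entry. Names were found for 60400 identifiers (99.55%), positions come from GENCODE 29, and 23229 genes had no count. Total counts were 25991007 to 32323393 per library. The limit given for libraries without a count covers counting error only. The 95% intervals reach 1.96 SE to either side of the value from the edgeR fit, and that SE includes the spread between libraries.

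Counts were tested with the edgeR 4.0.16 quasi-likelihood test (R 4.3.3), on the 18563 genes that filterByExpr kept, with TMM scaling. A single fit over 15 libraries used group as its only term, without replicate number. The Benjamini-Hochberg method was applied over all genes tested, and calls were made at an adjusted p under 0.05. CPM, RPKM (by GENCODE exon length) and log2 fold changes with SE were computed from the fit. Replicates differed beyond sampling noise, so none was counted as a copy. Whether they came from separate cultures is not stated beyond the term biological replicate, so the p-values measure the spread between these libraries.

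The members and lists were chosen with earlier results of these data known. Values of single libraries were to be given for the 6 members with the smallest p in each comparison and those too low to test. Of other lists, genes to be named were IFNB1, STAT2, CGAS, STING1, MAVS, SOCS1, IRF1 and IRF3 and the 3 with the smallest p in each comparison, of which some are given only by their list's count. TERF2 served to check the labels. Values of MX1, MX2, IRF9, CMPK2, IFNAR2, IFNGR2 and PTPN6 beyond that rule were added after they were seen. Some genes of these lists are not reported here and are not in the counts.

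Alternatives were RLE scaling, total counts, mitochondrial genes left out, limma voom 3.58.1, DESeq2 1.42.0, a stricter filter (mean of 5 CPM) and none, only the groups compared, a replicate block, and each library left out in turn. The code was tested on simulated data. Changed genes near the count filter were often missed there. The bound for judging recovery, which left out the lowest genes, was set after the first run.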

Additional observations from a re-analysis of the deposited data

Results flagged for a closer look

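For 7 interferon-stimulated genes the interaction term of the edgeR fit gave a different GNF-7 effect at the later time than at 6 h. The difference in log2 fold change was 1.09 for MX1, -0.349 for IFIT1, -0.262 for OAS3, -0.479 for IFI6, -0.719 for RIGI, -0.455 for SAMD9 and -0.494 for SAMD9L. The calls for IFIT1 and OAS3 were each lost when single libraries were left out. The groups have 3 libraries each, too few to test a single library as an outlier.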

How the results depend on the processing

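Of 65 member values called in the 5 comparisons, 49 kept direction and call under each alternative run for them, no called value changed sign, and 72 of 1005 alternative values lost the call. With the replicate block the members called stayed at 17 higher and 1 lower in senescence, 3 and 9 with GNF-7 at 6 h, 3 and 12 at 24 h, 1 and 6 for the interaction and 13 and 0 for vehicle time, and no member call changed. The labels name no pairing of same-numbered libraries. Correlations were -0.0369 to 0.0579 for the 30 same-numbered pairs and -0.0686 to 0.0395 for pairs with different numbers. Whether same-numbered libraries share a weak batch was not tested. Leaving out 1 library, the count of members called higher in vehicle time was 7 to 11 and the median 0.183 to 0.259. The interaction had 1 to 2 higher and 4 to 8 lower and a median of -0.279 to -0.168, the senescence median was 0.447 to 0.589 that of GNF-7 at 6 h -0.0878 to -0.0138 and that at 24 h -0.317 to -0.199. Values of uncalled genes that changed sign in senescence when a library was left out ranged from -0.172 to 0.328 for MX1, -0.566 to 0.21 for IFITM1, -0.857 to 0.415 for BST2, -0.0466 to 0.0352 for SAMD9 and -0.223 to 0.0768 for OASL, and for USP18 with GNF-7 at 24 h from -0.00856 to 0.203. With total counts the senescence median was 0.602 (all genes 0.195, against 0.0623), OASL 0.031, SAMD9 0.12 and IFITM1 0.0808, and vehicle time had 7 members higher with a median of 0.153. SAMD9 in senescence was 0.00412 with mitochondrial genes left out, 0.00328 with no filter, 0.138 with the 5 CPM filter and 0.0461 with only the groups compared, where IFITM1 was 0.00889. The senescence median was 0.742 with no filter, 0.949 with the 5 CPM filter, which left 17 members, and 0.657 with only the groups compared. With the 5 CPM filter 1 member was higher with GNF-7 at 6 h and 0 in the interaction, since MX1 and CMPK2 were not tested there. Depth limits the genes under about 1 CPM, BST2, IFITM1 and HERC5, whose intervals span more than 2-fold. In senescence the intervals of OASL, MX1, RSAD2 and MX2 also spanned more than 2-fold. Of these, RSAD2 at 0.379 to 0.523 CPM and MX2 at 0.229 to 0.362 CPM were low in cycling cells.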

Other observations

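Genes of antigen presentation by class I molecules, many of which interferon also induces, were read from a list of 15, all of which were tested. In senescence 10 were called higher and 4 lower by edgeR, against 35.6% and 34.4% of all genes tested. HLA-B rose by 1.32 (SE 0.0442, adjusted p = 1.04e-35 by edgeR), TAP1, a subunit of the peptide transporter, by 1.25 (SE 0.0508, adjusted p = 1.83e-31 by edgeR) and HLA-C by 1.09 (SE 0.0445, adjusted p = 3.06e-31 by edgeR). The 4 lower genes were TAP2, the partner of TAP1, the immunoproteasome subunits PSMB8 and PSMB9, and the peptide trimming enzyme ERAP1, at -0.45, -0.47, -0.69 and -0.25 on the log2 scale, and they were named after their values were seen. With GNF-7, 7 of the 15 were called lower at 6 h, and 9 lower and 1 higher at 24 h, against 21.4% of all genes lower at 6 h and 29.7% lower and 29.3% higher at 24 h. The largest fall at 24 h was that of TAPBP, which loads peptides, at -0.66 (SE 0.0414, adjusted p = 8.96e-21 by edgeR). HLA genes are alike in sequence, so reads may have been split between them. Exons of TAP1, TAP2, PSMB8, PSMB9 and ERAP1 overlap those of other annotated genes, so their values may hold reads of the overlapping gene.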
